A study of Mus musculus with 6 samples.

Results

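Chemokines and the cytokine *Il6* were followed in the differentiation of C2C12 myoblasts into myotubes. The 9 genes *Cxcl1*, *Cxcl5*, *Cxcl12*, *Cxcl14*, *Cx3cl1*, *Ccl2*, *Ccl5*, *Ccl7* and *Il6* were taken by their symbol from the 54525 gene rows of the count files, and all 9 were found. C2C12 is an established mouse myoblast line, and the cells used here were labelled wild type (WT) and untreated. The series holds 6 RNA-seq libraries, 3 made before differentiation (myoblasts, D0) and 3 on day 5 of it (myotubes, D5). Both groups come from the same line, and the medium was changed to start differentiation, so the days in culture and the change of medium cannot be told apart. The labels do not say that the 3 samples of a group were separate cultures started on different days, so p-values measure the spread between these samples.

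Chemokines are small secreted proteins that attract leukocytes and other cells through G protein-coupled receptors. They are named for the spacing of the first conserved cysteines, as CXC, CC or CX3C. Il6 is a cytokine that signals through its receptor Il6ra and the shared subunit Il6st (gp130) to Stat3, and is known as a factor that contracting muscle releases. In muscle, chemokines are known for the recruitment of neutrophils and monocytes after injury, and Cxcl12 and its receptor Cxcr4 for the migration of muscle precursor cells.

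The cysteine spacing that names each class can be read in the coding sequences. The coding stretch around these codons is shown for the 8 chemokines, 5′ to 3′ on the coding strand, from the first GENCODE transcript of each gene (release M21, GRCm38), with the cysteine codons in capitals.
Cxcl1: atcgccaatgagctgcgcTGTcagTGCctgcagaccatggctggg
Cxcl5: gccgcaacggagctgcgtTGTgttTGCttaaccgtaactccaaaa
Cxcl12: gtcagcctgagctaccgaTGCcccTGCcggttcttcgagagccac
Cxcl14: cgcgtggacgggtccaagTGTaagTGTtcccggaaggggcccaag
Cx3cl1: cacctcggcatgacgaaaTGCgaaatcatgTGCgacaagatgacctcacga
Ccl2: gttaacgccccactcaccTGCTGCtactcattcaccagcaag
Ccl7: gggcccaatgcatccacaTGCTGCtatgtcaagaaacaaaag
Ccl5: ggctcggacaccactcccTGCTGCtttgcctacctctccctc
In *Cxcl1*, *Cxcl5*, *Cxcl12* and *Cxcl14* 1 codon lies between the capitals, in *Cx3cl1* 3 codons, and in *Ccl2*, *Ccl7* and *Ccl5* none. The codons for glutamate, leucine and arginine code for the ELR motif of chemokines that attract neutrophils. They lie directly before the first codon in capitals in *Cxcl1* and *Cxcl5*, and not in *Cxcl12* or *Cxcl14*. The first codon in capitals is codon 33 in *Cxcl1*, 53 in *Cxcl5*, 30 in *Cxcl12* and 25 in *Cxcl14*, counted from the start codon. In *Cx3cl1* it is codon 32, in *Ccl2* 34, and in both *Ccl7* and *Ccl5* 33. Cysteine codons nearer the start codon were not looked at.

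Levels are given as CPM, the counts per 1000000 counts of a library after TMM scaling, which corrects for differences in library composition. The libraries held 36555048 to 40895840 counts on genes at D0 and 25449759 to 25811300 at D5. The detection limit was set at 3 counts per library, so that a gene at or under it counted as not detected, and it corresponds to 0.0713 to 0.080 CPM at D0 and 0.119 to 0.122 CPM at D5. It covers counting error only. Of all genes, 16290 had enough counts to be tested with edgeR, and 6869 of them were higher at D5 and 6641 lower (adjusted p under 0.05). A second edgeR test asked for more than a 2-fold change, and 2700 genes passed it as higher and 1985 as lower. An alternative scaling used the ERCC spike-ins, synthetic RNAs added to each sample. The muscle markers were present, and *Myog*, a driver of muscle differentiation, rose from 2.76 ± 0.367 to 515 ± 3.24 CPM and *Myh3*, the embryonic myosin heavy chain, from 1.69 ± 0.361 to 4698 ± 174 CPM (mean ± SD, n = 3 in each group). Of 8 muscle markers, all tested, 6 were called higher and 2 lower (42.2% and 40.8% of all tested genes). *Myf5* fell from 123 ± 3.02 to 24.6 ± 0.582 CPM and *Myod1* from 207 ± 6.24 to 126 ± 3.95 CPM (SD, n = 3 in each group).

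*Cxcl1*, *Cxcl5*, *Cxcl12*, *Cx3cl1* and *Ccl7* rose between myoblasts and myotubes, by 19.6-fold to 83.1-fold. *Ccl2* passed neither test. *Cxcl14*, *Ccl5* and *Il6* had too few counts to be tested. Of the 6 tested genes, 5 were called higher (5 of all 9), where 42.2% of all tested genes were. The same 5 passed the test for a 2-fold rise, where 16.6% of all tested genes did (28.8% in either direction). *Cxcl1* and *Cxcl5* had enough counts to be tested only at D5, so they had to differ to be counted, and the count of tested genes that rose does not stand as support. None of the 6 tested genes was called lower, where 40.8% of all tested genes were. None of these 6 was lower at an unadjusted p under 0.05 or with DESeq2. *Ccl5*, not tested here, was called lower when no filter on low counts was applied. In the same 5 of the 9, every D5 library lay above every D0 library, as in 42.2% of all tested genes. *Cxcl14*, mostly under the detection limit, was not counted. In none of the 9 did every D5 library lie below every D0 library, as in 41.1%.

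**Figure D1:**
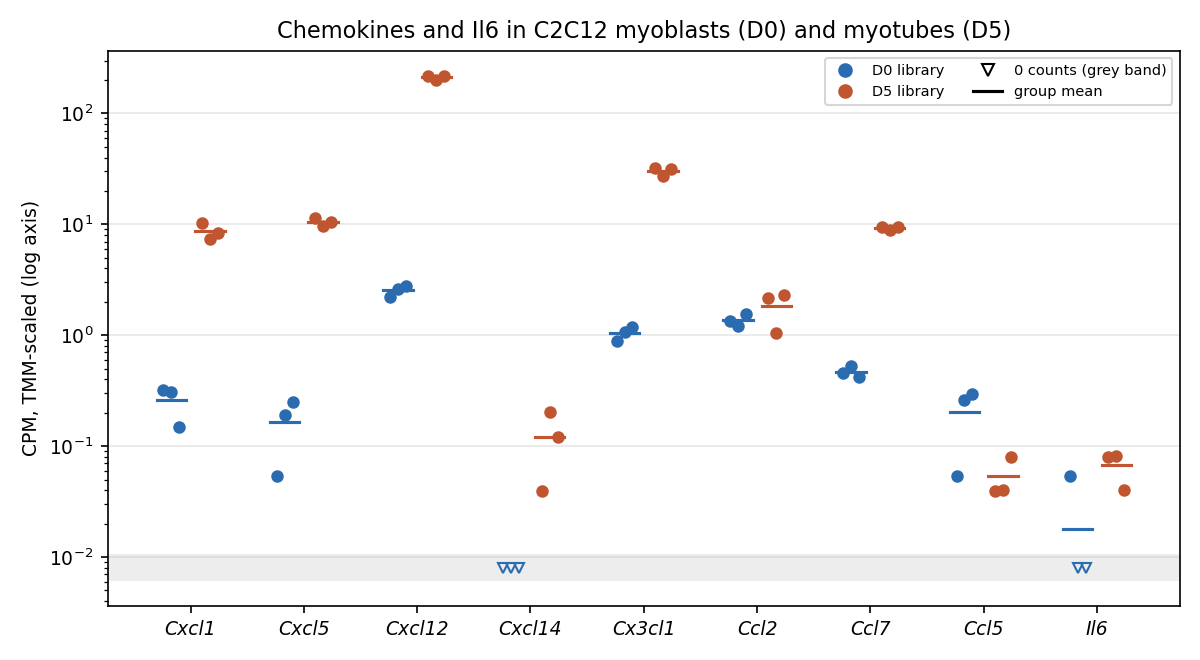
Level of each of the 9 genes in each library, in TMM-scaled CPM on a log axis. Points are single libraries (blue D0, orange D5, n = 3 each), short lines are group means, and open triangles in the grey band mark libraries with 0 counts. *Cxcl1*, *Cxcl5*, *Cxcl12*, *Cx3cl1* and *Ccl7* have their D5 points far above their D0 points, the groups overlap for *Ccl2*, *Ccl5* and *Il6*, and *Cxcl14* has 0 counts in all 3 D0 libraries.

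Among the chemokines with the ELR motif, *Cxcl1*, a ligand of the neutrophil receptor Cxcr2, had 12, 13 and 6 counts in D0 replicates 1, 2 and 3 and 259, 181 and 207 counts in D5 replicates 1, 2 and 3. In CPM these were 0.320, 0.309 and 0.149 at D0 and 10.3, 7.34 and 8.31 at D5. The lowest D5 library was far above the highest D0 library. *Cxcl1* (chr5:90891241-90893115, plus strand, GRCm38) rose 33.0-fold, a log2 fold change of 5.04 (SE 0.20, adjusted p = 4.3e-20 by edgeR).

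*Cxcl5*, another Cxcr2 ligand, had 2, 8 and 10 counts at D0 and 286, 237 and 262 counts at D5. These were 0.0533, 0.190 and 0.248 CPM at D0, the first of them under the detection limit, and 11.4, 9.61 and 10.5 CPM at D5. *Cxcl5* (chr5:90759360-90761624, plus strand) rose 61.6-fold (log2 fold change 5.94, SE 0.20, adjusted p = 3.1e-22). Its size rests on few D0 counts: with 1 library left out at a time it ranged from 5.55 to 6.33 on the log2 scale. The 2 genes lie on the same strand of chromosome 5. Of the 50-base stretches of the *Cxcl5* transcripts, 0.693% also occur in transcripts of other genes, and none of *Cxcl1*.

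*Cxcl12*, which signals through Cxcr4 and is also bound by the scavenging receptor Ackr3, was the most abundant of the 9 in myotubes. It had 83, 110 and 113 counts at D0 and 5465, 4977 and 5418 at D5. In CPM, *Cxcl12* was at 2.21, 2.61 and 2.80 in myoblasts and at 217, 202 and 218 in myotubes. The 3 libraries of each group lay close together. *Cxcl12* (chr6:117168535-117181367, plus strand) rose 83.1-fold (log2 fold change 6.38, SE 0.060, adjusted p = 1.9e-36), which was the largest rise of the 6 genes tested.

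*Cxcl14* (chr13:56288643-56296551, minus strand), a CXC chemokine without the ELR motif, had 0 counts in every D0 library and 1, 5 and 3 counts at D5. Only D5 replicate 2 was above the detection limit, and D5 averaged 0.121 ± 0.0815 CPM (SD, n = 3). No fold change is given, since it would rest on that library. When no filter on low counts was applied, it was called higher with an adjusted p of 0.0019.

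The genes whose profile over the 6 libraries was most like that of *Cxcl12* included *Adprhl1* and *Ctla2a*. The likeness was measured as the root mean square difference of log2 CPM with a prior count of 2, each gene centred on its own mean, and was 0.0760 and 0.0789 in that order, among 16290 genes. *Adprhl1* went from 0.0664 ± 0.0114 to 9.45 ± 0.578 CPM and *Ctla2a* from 0.125 ± 0.0217 to 15.5 ± 1.81 CPM (SD, n = 3 in each group). The prior count shrinks the change of genes with few D0 counts, and the D0 mean of *Adprhl1* was under the detection limit.

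*Cx3cl1*, or fractalkine, is made as a membrane-bound chemokine that can be shed, and its receptor is Cx3cr1. It had 33, 45 and 48 counts at D0 and 807, 678 and 779 counts at D5. In CPM, the myoblast libraries held 0.880, 1.07 and 1.19 and the myotube libraries 32.1, 27.5 and 31.3. Even the lowest myotube library was well above all myoblast libraries. *Cx3cl1* (chr8:94772009-94782427, plus strand) rose 28.7-fold (log2 fold change 4.84, SE 0.10, adjusted p = 1.2e-27). *Adam10* and *Adam17* encode the proteases known to shed it. *Adam10* fell by 0.70 on the log2 scale, from 154 ± 4.4 to 94.6 ± 3.36 CPM, and *Adam17* did not pass the test, at 84.1 ± 1.12 and 85.8 ± 2.74 CPM (SD, n = 3 in each group).

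Among the CC chemokines, *Ccl2* and *Ccl7* are both ligands of the monocyte receptor Ccr2, and they lie next to each other on chromosome 11, 8.26 kb apart on the plus strand. *Ccl7* had 17, 22 and 17 counts at D0 and 237, 219 and 234 counts at D5. Its CPM was 0.453, 0.523 and 0.422 in myoblasts and 9.43, 8.88 and 9.40 in myotubes. The groups were far apart relative to the spread within them. *Ccl7* (chr11:82045712-82047525) rose 19.6-fold (log2 fold change 4.29, SE 0.15, adjusted p = 1.2e-21).

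*Ccl2* (chr11:82035571-82037453) had 50, 51 and 63 counts at D0 and 54, 26 and 58 counts at D5. In CPM it was at 1.33, 1.21 and 1.56 at D0 and at 2.15, 1.05 and 2.33 at D5. The groups overlapped because D5 replicate 2 was the lowest of all 6 libraries, while the other two D5 libraries were above every D0 library. The log2 fold change was 0.43 (SE 0.22, 95% interval -0.015 to 0.88, adjusted p = 0.069), so *Ccl2* was not called. Without D5 replicate 2 it was called higher, at 0.71 (SE 0.20, adjusted p = 0.0019), and without D0 replicate 3 also, at 0.53 (SE 0.24, adjusted p = 0.042). Without D5 replicate 3 it was at 0.23 (adjusted p = 0.41) and without D5 replicate 1 at 0.31 (adjusted p = 0.25), neither called, and scaling to the ERCC spike-ins turned its sign (-0.34).

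In the 3 D0 libraries there were 0.340, 0.431 and 0.270 counts on *Ccl7* for each count on *Ccl2*. In the D5 libraries there were 4.39, 8.42 and 4.03. This ratio is not corrected for gene length, and the highest value is that of D5 replicate 2, where *Ccl2* was low. On the log2 scale the ratio went from -1.55 ± 0.338 to 2.41 ± 0.581 (SD, n = 3 in each group). An exact two-sided permutation test gave p = 0.1, the smallest that 3 libraries against 3 can give.

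The next genes of the same cluster are *Ccl11*, *Ccl12* and *Ccl8*, all on the plus strand. *Ccl11*, an eosinophil chemokine, had 0 counts at D0 and was at 1.58 ± 0.218 CPM at D5, at least 21.0-fold higher. *Ccl8* rose from 0.0996 ± 0.0469 to 7.77 ± 0.200 CPM, by 6.22 on the log2 scale (SE 0.22). *Ccl12* had 0 counts in all 6 libraries, as had *Ccl1* further along. Of the cluster, then, *Ccl7*, *Ccl11* and *Ccl8* were called higher, *Ccl2* was not called, and *Ccl12* and *Ccl1* had no counts. *Ccl11* and *Ccl8* had enough counts to be tested only through D5, so they had to rise to be counted.

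**Figure D2:**
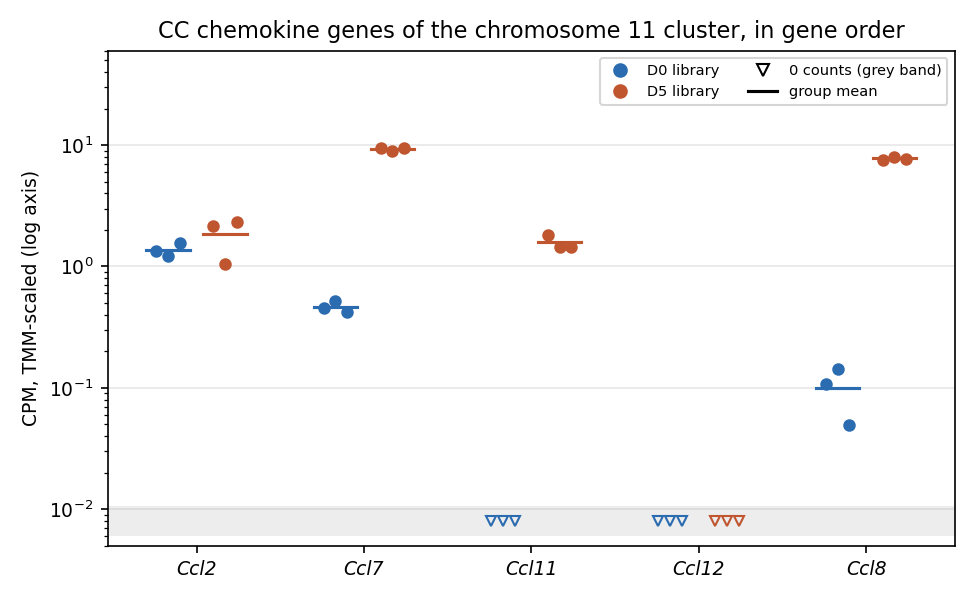
Level of the CC chemokine genes of the chromosome 11 cluster in each library, in TMM-scaled CPM on a log axis, in their order along the chromosome (distances not to scale). Points are single libraries (blue D0, orange D5, n = 3 each), short lines are group means, and open triangles in the grey band mark 0 counts. The groups overlap for *Ccl2* and lie apart for its neighbour *Ccl7* (0.466 against 9.24 CPM), for *Ccl11* and for *Ccl8*, and *Ccl12* has 0 counts in all 6 libraries.

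*Ccl5* (chr11:83525778-83530518, minus strand), or RANTES, attracts T cells and monocytes. Its counts were 2, 11 and 12 at D0 and 1, 1 and 2 at D5. D0 replicate 1 was as low as the D5 libraries, and no D5 library was above the detection limit. The mean was 0.204 ± 0.132 CPM at D0, at least 1.69-fold above the limit of 3 counts per D5 library. It was not tested, and when no filter was applied it was called lower, by 1.93 on the log2 scale (SE 0.74, adjusted p = 0.019 by edgeR).

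*Il6* (chr5:30013114-30019981, plus strand) was at or under the detection limit in all 6 libraries, with 2, 0 and 0 counts at D0 and 2, 2 and 1 at D5. No difference was detectable at this depth, and no fold change is given. Without a filter its adjusted p was 0.26.

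Among these chemokines the order of levels differed between myoblasts and myotubes. Levels were compared between genes per kilobase of exonic length, summed over all annotated transcripts, which understates a gene such as *Cxcl12* whose 8176 exonic bases are not all in 1 transcript. At D0, *Ccl2* was highest, at 1.20 ± 0.157 CPM per kb, and *Ccl7* followed at 0.582 ± 0.0645. *Cxcl12*, *Cx3cl1*, *Ccl5*, *Cxcl1* and *Cxcl5* followed, from 0.311 down to 0.0880, each overlapping its neighbour in this order. At D5, *Cxcl12* was highest at 26.0 ± 1.11 CPM per kb, before *Ccl7* at 11.5 ± 0.385 and *Cx3cl1* at 7.71 ± 0.626, and these did not overlap. *Cxcl5* at 5.64 ± 0.475 and *Cxcl1* at 4.61 ± 0.806 overlapped each other, and *Ccl2* lay below them at 1.62 ± 0.606. *Cxcl14*, *Ccl5* and *Il6* were the last 3 at D5, between 0.0276 and 0.0662 CPM per kb (SD, n = 3 throughout).

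Of the level per kb summed over 36 chemokine ligands, *Cxcl12* took 5.49% to 5.94% in the D0 libraries and 33.2% to 34.0% in the D5 libraries. *Ccl25*, a ligand of Ccr9, took 41.2% to 42.9% at D0 and 2.35% to 2.45% at D5, while its own level went from 16.9 ± 1.01 to 13.8 ± 0.626 CPM. These shares depend on the lengths used. Of the summed CPM, *Cxcl12* took 10.3% to 11.3% at D0 and 70.2% to 71.5% at D5. Of the 36 ligands, 7 were above the detection limit in every D0 library and 12 in every D5 library, with D0 sequenced more deeply. Of the 28 ligands besides the 8 described here, 5 were tested. *Ccl8*, *Ccl11*, *Cxcl16* and *Ccl9* were called higher and *Ccl25* lower (42.2% and 40.8% of all tested genes), and 12 of the 28 had 0 counts in all 6 libraries. The 4 called higher had enough counts to be tested only through D5. With at least 10 counts asked for in every library they were no longer tested, so none was called higher, and 1 was called lower. *Cxcl16* overlaps a gene on the other strand over 18.3% of its exonic length. Scaled to the spike-ins, *Ccl9* and *Ccl25* were not called.

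**Figure D3:**
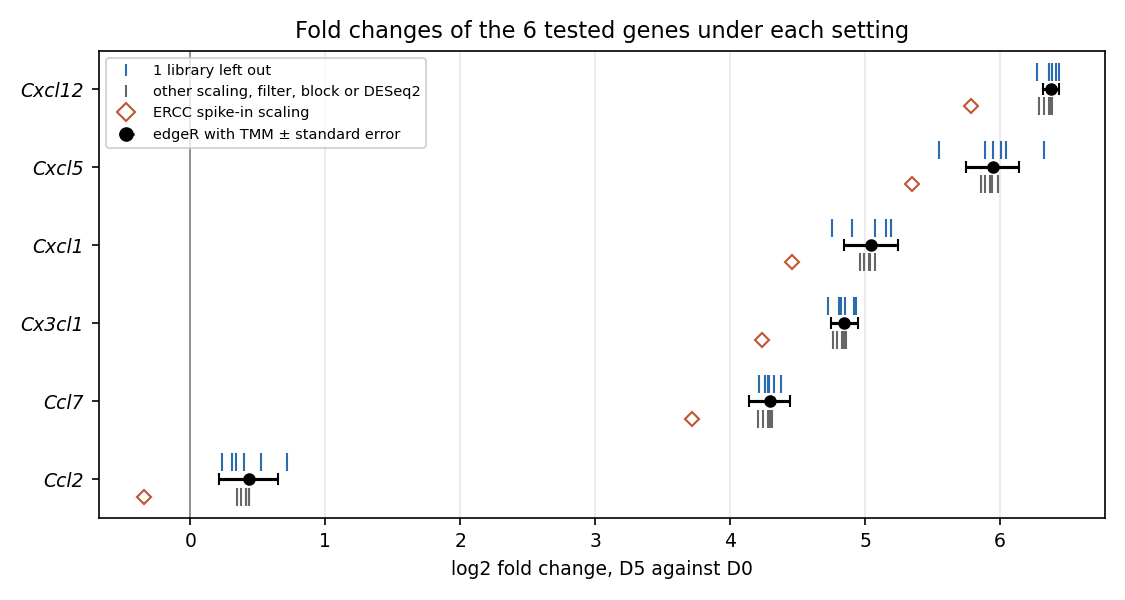
Log2 fold change of D5 against D0 for the 6 tested genes. Black points are the edgeR estimates with TMM scaling and bars their standard errors, blue ticks are fits with 1 library left out, grey ticks are other scalings, filters, the replicate block and DESeq2, and orange diamonds are scaled to the ERCC spike-ins. The 5 genes that rose stay above 3.7 in every fit, and *Ccl2* lies between -0.34 and 0.71.

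RefSeq promoters (GRCm38.p6) were matched for 5 of the 9, *Cxcl1*, *Cxcl12*, *Cxcl14*, *Cx3cl1* and *Il6*. Those of *Cxcl1* and *Cxcl12*, which rose, and of *Il6*, which was not detected, are shown 5′ to 3′ on the plus strand up to the annotated gene start, with matches to the NF-kappaB (kappaB) consensus in capitals. They are chr5:90890995-90891240 for *Cxcl1*, chr5:30012864-30013113 for *Il6* and chr6:117168285-117168534 for *Cxcl12*.
Cxcl1: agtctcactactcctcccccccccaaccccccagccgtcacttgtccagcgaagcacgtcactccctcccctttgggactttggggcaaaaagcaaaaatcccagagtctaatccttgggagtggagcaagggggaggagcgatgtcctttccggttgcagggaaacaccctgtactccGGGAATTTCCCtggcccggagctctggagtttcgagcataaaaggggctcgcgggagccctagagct
Il6: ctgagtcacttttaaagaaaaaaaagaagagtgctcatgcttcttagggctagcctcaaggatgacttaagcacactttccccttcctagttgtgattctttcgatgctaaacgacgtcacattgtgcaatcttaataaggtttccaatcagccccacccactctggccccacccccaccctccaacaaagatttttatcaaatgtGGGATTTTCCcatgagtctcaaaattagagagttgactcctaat
Cxcl12: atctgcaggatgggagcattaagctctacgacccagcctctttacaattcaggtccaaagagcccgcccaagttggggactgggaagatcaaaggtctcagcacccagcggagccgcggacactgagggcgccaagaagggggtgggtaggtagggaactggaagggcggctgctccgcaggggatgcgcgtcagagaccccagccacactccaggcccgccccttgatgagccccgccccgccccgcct
The *Cxcl1* promoter has overlapping matches on both strands, starting 71 and 70 bases before the RefSeq start site. *Il6* has 1 match, starting 44 bases before its start site, and *Cxcl12* has none. On both strands, 7.25% of 32817 promoters hold a match in the 250 bases before the start site. The E-box CANNTG, which is in 66.2% of promoters, was found in *Cxcl1*, *Cx3cl1* and *Il6* and not in *Cxcl12* or *Cxcl14*, and the MEF2 consensus, which is in 0.509%, in none of the 5. A match is a sequence description and no measure of binding.

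The genes for both receptors of Cxcl12 fell. *Cxcr4* went from 82.3 ± 1.75 to 32.9 ± 2.34 CPM, a log2 fold change of -1.32 (SE 0.046), and *Ackr3* from 22.7 ± 1.3 to 6.16 ± 1.20 CPM, a log2 fold change of -1.88 (SE 0.086; SD, n = 3 in each group). *Cxcl12* itself rose. Per kb of exonic length, *Cxcl12* was at 0.00603 to 0.00735 times the level of *Cxcr4* in the D0 libraries. It was at 1.29 to 1.59 times that level in the D5 libraries. The length used understates *Cxcl12*, and in CPM the ratios were 0.0273 to 0.0333 at D0 and 5.83 to 7.18 at D5.

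*Cx3cr1*, the receptor of *Cx3cl1*, was low in both groups, at 0.275 ± 0.0428 and 0.601 ± 0.208 CPM, and was called higher by 1.12 on the log2 scale (SE 0.34, adjusted p = 0.0039). *Cxcr1* and *Cxcr2*, the receptors for *Cxcl1* and *Cxcl5*, had 0 counts in all 6 libraries. The same held for *Ccr2*, the receptor for *Ccl2* and *Ccl7*. Of 23 chemokine receptors, 6 were tested, with 4 called higher (42.2% of all tested genes) and 2 lower (40.8%). The 4 called higher, *Ackr4*, *Ccr9*, *Cxcr6* and *Cx3cr1*, had enough counts to be tested only through D5, so they had to rise to be counted. With at least 10 counts asked for in every library these 4 were no longer tested, so none was called higher, and 2 were called lower. *Ackr4* and *Ccr9* passed the test for a 2-fold rise, *Ackr4* from 0.0565 ± 0.05 to 1.86 ± 0.278 CPM. *Ccr9* was at least 17.4-fold higher, but 19.0% of its exonic length overlaps genes on the other strand, and the counting is not stated to use strand. Scaled to the spike-ins, *Ackr4* and *Ccr9* were called higher and *Cxcr4* and *Ackr3* lower. *Cxcr6* (0.99, SE 0.63, adjusted p = 0.22 by edgeR) and *Cx3cr1* (0.37, SE 0.61, adjusted p = 0.66 by edgeR) were not called.

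**Figure D4:**
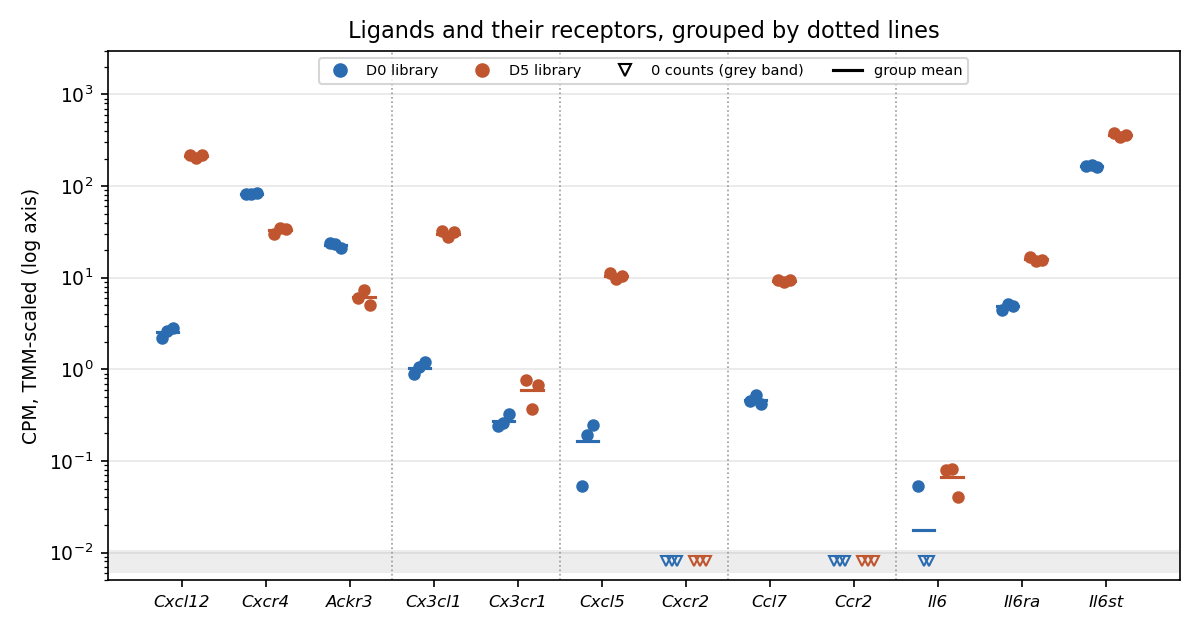
Levels of ligands and the genes for their receptors in each library, in TMM-scaled CPM (not corrected for gene length) on a log axis, with dotted lines between ligand and receptor groups. Points are single libraries (blue D0, orange D5, n = 3 each), short lines are group means, and open triangles in the grey band mark 0 counts. *Cxcl12* is higher at D5 while *Cxcr4* and *Ackr3* are lower, *Cxcr2* and *Ccr2* have 0 counts throughout, and *Il6ra* and *Il6st* are higher at D5 while *Il6* stays at or under 2 counts.

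Although *Il6* was not detected, its receptor and other members of its family were. *Il6ra* rose from 4.87 ± 0.374 to 16.01 ± 0.919 CPM (log2 fold change 1.71, SE 0.082) and *Il6st*, the shared signalling subunit, from 165 ± 2.61 to 363 ± 17.4 CPM (1.13, SE 0.035). *Stat3* rose by 1.34 (SE 0.037), and *Socs3*, its target and feedback inhibitor, from 7.38 ± 0.136 to 41.3 ± 3.86 CPM (2.48, SE 0.066). Of the related cytokines and their partners, *Lif* rose by 2.14, *Il11* by 2.01 and *Ctf1* by 4.38 on the log2 scale. *Il11* had enough counts to be tested only through D5, and with at least 10 counts asked for in every library 12 genes of the list were called higher. Among receptors, *Osmr* rose by 2.33 and *Il11ra1* by 3.74, while *Cntfr* fell by 5.03, from 44.3 ± 1.44 to 1.35 ± 0.271 CPM (SD, n = 3 in each group). The inhibitor *Socs1* fell by 1.60. Of the 20 genes of this list, 19 were tested, 13 were called higher and 5 lower (42.2% and 40.8% of all tested genes), and 10 passed a 2-fold rise and 2 a 2-fold fall (16.6% and 12.2%). The median log2 fold change was 1.13, beside 0.0022 over all tested genes. Scaled to the spike-ins, 6 were called higher and 2 lower, and *Il6ra*, *Il6st*, *Stat3* and *Il11* were not called.

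NF-kappaB factors are known activators of *Cxcl1*, *Cxcl5*, *Ccl2*, *Ccl5* and *Il6*. Of 22 genes for its subunits, inhibitors and kinases, 21 were tested, with 11 called higher and 8 lower, near the 42.2% and 40.8% of all tested genes, and a median log2 fold change of 0.37. *Bcl3*, a nuclear cofactor of NF-kappaB, rose from 2, 4 and 0 counts at D0, a mean under the detection limit, to 3.45 ± 0.472 CPM at D5. Its fitted log2 fold change of 6.0 (SE 0.34) rests on those few counts, and it was tested only through D5. *Relb* rose by 2.55, *Nfkbie* by 1.74, *Map3k14*, the kinase of the alternative pathway, by 1.42, *Nfkb2* by 1.20 and *Tnip1* by 1.09, and *Tnfaip3*, an inhibitor, fell by 1.33. Among subunits of the classical pathway, *Rela* fell by 0.40 and *Rel* rose by 0.52, and *Nfkb1* at 0.05 did not pass the test. Scaled to the spike-ins, 2 genes of this list were called higher, *Bcl3* and *Relb*, and 1 lower, *Tnfaip3*. Genes on the other strand overlap 18.1% of the exonic length of *Nfkb2*.

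Of 12 other transcription factors of inflammatory genes, all tested, 8 were called higher and 3 lower, beside 42.2% and 40.8% of all tested genes (median 0.91). *Junb* rose by 1.93, *Cebpd* by 1.79, *Fos* by 1.75, *Irf7* by 1.69, *Egr1* by 1.5 and *Cebpb* by 1.5 on the log2 scale. *Irf7* was tested only through D5, and 7 were called higher with at least 10 counts asked for in every library. *Fosl1* fell by 2.70, *Atf3* by 2.05 and *Jun* by 1.01. Spike-in scaling left 1 called higher, *Junb*, and 3 lower. A gene on the other strand overlaps 57.2% of the exonic length of *Fosl1*, 20.7% of that of *Cebpb* and 15% of that of *Cebpd*. Of 8 factors of mRNA decay and stability, which are known to act on chemokine and cytokine transcripts, 4 were called higher and 4 lower, near the same shares (median -0.081). Scaled to the spike-ins, 1 of these was called higher and 3 lower. *Zfp36l1* rose by 2.52, and *Khsrp* fell by 1.26 and *Elavl1* by 1.07, all 3 also with the spike-ins, but a gene on the other strand overlaps 55.9% of the exonic length of *Zfp36l1*. Of 7 proteases, 4 were tested. *Mmp2*, a gelatinase that can trim Cxcl12 and Ccl7, rose from 7.22 ± 0.460 to 1229 ± 27.4 CPM, by 7.41 (SE 0.049; SD, n = 3 in each group).

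**Figure D5:**
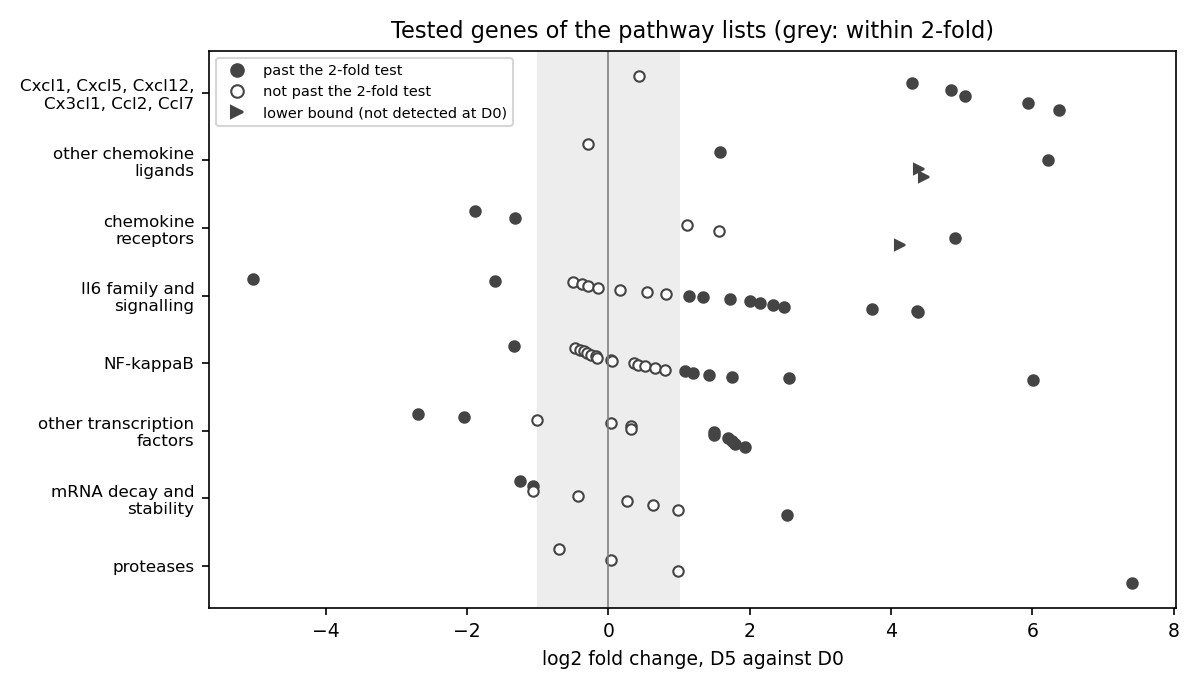
Log2 fold change of D5 against D0 for the tested genes of each list, 1 point a gene. Filled points passed edgeR's test for more than a 2-fold change, open points did not, triangles are lower bounds for genes not detected at D0, and the grey band spans changes within 2-fold. The 5 chemokines that rose lie between 4.29 and 6.38, the NF-kappaB genes lie mostly within the band, with *Bcl3* at 6.0, and *Mmp2* lies at 7.41.

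The labels name C2C12 as the only cells, and markers of other cell types were looked at beside these chemokines. Of 10 macrophage and monocyte markers, *Adgre1*, *Fcgr1* and *C1qa* had 0 counts in all 6 libraries, *Ptprc* at most 1 count, and the list summed to 8.13 to 8.16 CPM at D0 and 7.16 to 8.47 CPM at D5, mostly from *Cd14* and *Cd68*. *Itgam* and *Lyz2* of this list were not detected at D0 and were at 0.375 ± 0.164 and 0.362 ± 0.185 CPM at D5. Another gene on the same strand overlaps 68.7% of the exonic length of *Itgam*. Of the 2 markers of this list tested, *Cd68* was called lower, from 3.15 ± 0.138 to 2.22 ± 0.356 CPM, but not with the spike-ins, and *Cd14* was not called. *Csf1r* had 3, 3 and 5 counts at D0 and 2, 1 and 0 at D5. The 8 lymphocyte markers summed to at most 0.0951 CPM at D0 and 0.199 CPM at D5. The 6 neutrophil markers, mostly *Mpo*, summed to between 0.0248 and 0.0475 CPM at D0 and between 0.973 and 1.51 CPM at D5. Of these, 5 were at or under the detection limit in all 6 libraries. *Mpo* alone was tested, and it was called higher (42.2% of all tested genes), also with the spike-ins. It was tested only through D5, and a gene on the other strand overlaps 14.95% of its exonic length. The 6 endothelial markers summed to between 3.41 and 3.90 CPM at D0 and between 1.26 and 1.49 CPM at D5, with *Tie1* at 0 counts in all 6 libraries. Of the 3 endothelial markers tested, 1 was called higher (*Vwf*) and 2 lower (*Kdr* and *Tek*), beside 42.2% and 40.8% of all tested genes. With at least 10 counts asked for in every library, which leaves any gene with fewer untested, none of them was called. Of 8 fibroblast and mesenchymal markers, 6 were tested and 5 were called higher (42.2% of all tested genes), or 4 with at least 10 counts asked for in every library, since *Lum* was tested only through D5. Their sum was between 589 and 616 CPM at D0 and between 4137 and 4320 CPM at D5. *Dcn* rose from 0.375 ± 0.105 to 242 ± 19.1 CPM, *Pdgfra* from 1.04 ± 0.151 to 23.9 ± 1.77 CPM, and *Lum* was at least 132-fold higher (SD, n = 3 in each group), while *Tcf21* had 0 counts and *Thy1* at most 1 count. *Ly6a*, also tested, was not called, and with the spike-ins it was at -0.61 on the log2 scale (SE 0.52), again not called. With total-count scaling, without a filter or without D0 replicate 3, 1 marker of this list was called lower. The fibroblast genes called higher moved with *Cxcl12* and the other chemokines that rose, and their part in the result was not tested. In bulk RNA, fewer cells of a type and less RNA per cell cannot be told apart.

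The scaling bears on how many genes are called. With counts scaled to the ERCC spike-ins, the median log2 fold change of all genes was -0.58 in place of 0.0022, 1813 genes were called higher and 3747 lower, and *Ccl2* turned to -0.34 (SE 0.54, adjusted p = 0.65 by edgeR). *Cxcl12* was then at 5.79, *Cxcl5* at 5.35, *Cxcl1* at 4.46, *Cx3cl1* at 4.24 and *Ccl7* at 3.72, and all 5 were still called higher. The spike-ins took 0.726% to 0.859% of all counts at D0 and 0.720%, 1.20% and 2.09% in D5 replicates 2, 1 and 3, so they varied more among the D5 libraries.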

How the data were processed

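RNA-seq of C2C12 myoblasts (D0, n = 3) and myotubes (D5, n = 3) was analysed. The files deposited by the authors hold raw featureCounts counts per gene, not normalized, from reads aligned to GRCm38. The labels name Tophat2 and NGS-QC-Toolkit, and the study's methods HISAT2 and FastQC. The strand setting, the annotation release and the handling of reads with several matches are not given in the sources used here. A row without a gene name, which held the column total, and the ERCC rows (0.720% to 2.09% of counts) entered neither the library sizes nor the tests.

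From the counts, TMM factors (0.969 to 1.04), CPM, log2 fold changes and quasi-likelihood tests were obtained with edgeR 4.0.16 (R 4.3.3), following filterByExpr, which for these libraries asks for about 0.321 CPM in 3 libraries. glmTreat tested against a 2-fold change. Benjamini-Hochberg adjustment covered all 16290 tested genes, with a threshold of 0.05. The standard error was taken from the fold change and its F statistic, and 95% intervals from the t distribution. Positions and exonic lengths come from GENCODE M21, which held 99.8% of the identifiers. The fit was tested on simulated data made from the means and sizes of these libraries.

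The 9 genes and the pathway and marker lists were chosen with earlier results of these data known. All 9 genes and any listed gene could be named, those past the 2-fold test first, and for the gene with the largest rise the 3 genes with the most similar profile. A few genes that this rule would name are not reported here. Replicate pairs differed by more than sampling noise (chi-square per degree of freedom 2.28 to 3.71), so none was taken for a copy. Alternatives were DESeq2 1.42.0, upper-quartile, total-count and ERCC scaling, no filter, at least 10 counts in every library, the replicate number as a block, and each library left out.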

Additional observations from a re-analysis of the deposited data

How the results depend on the processing

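The log2 fold changes of *Cxcl1*, *Cxcl5*, *Cxcl12*, *Cx3cl1* and *Ccl7* kept their direction and their call under every one of the 13 alternatives in which they were tested (12 for *Cxcl1* and *Cxcl5*). *Cxcl1* ranged from 4.46 to 5.19, *Cxcl5* from 5.35 to 6.33, *Cxcl12* from 5.79 to 6.44, *Cx3cl1* from 4.24 to 4.93 and *Ccl7* from 3.72 to 4.38, with ERCC scaling at the low end of each. *Ccl2* was reversed under ERCC scaling (-0.34). It ranged from 0.23 to 0.71 with 1 library left out and was called higher without D5 replicate 2 (0.71) and without D0 replicate 3 (0.53). Without a filter on low counts, 1 of the 9 genes was called lower (*Ccl5*) and 6 were called higher (with *Cxcl14*). With at least 10 counts asked for in every library, *Cxcl1* and *Cxcl5* were no longer tested, so 3 were called higher and 3 past a 2-fold change. With 1 library left out, 5 to 6 were called higher, 5 past a 2-fold change and 0 lower. Over all genes, 5560 were called under ERCC scaling, of which 67.4% were lower, and 13236 to 13599 with 1 library left out, beside 13510 reported.

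Whether the sample numbers 1 to 3 pair the libraries is not settled. Deviations of same-numbered D0 and D5 libraries correlated at only 0.0329, 0.0645 and 0.0277. Yet each library correlated best with the one of its own number, a hint from the data and not the design. With the replicate block, 5 of the 9 genes were called higher and none lower. *Ccl2* was then at 0.41 (SE 0.20, adjusted p = 0.052 by edgeR) and not called. Depth limits *Cxcl14*, *Ccl5* and *Il6*, which had at most 12 counts in any library.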
